A study of Mus musculus with 6 samples.

Results

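The genes of the ATP-binding cassette (ABC) family and of the ATP-driven ion and lipid pumps were followed in brain RNA of mice that differed in the allele of Nxf1, the major nuclear export factor for mRNA. Members were taken by symbol, as every alternative event of a gene named Abc with a letter from a to g and a number, or Atp with a number that is not 5, apart from Abca5, whose 3 events were left out, and from events next to Nxf1 on chromosome 19, of which there were 0 among these genes. This gave 85 events in 52 genes, out of 13002 events in 7788 genes in the table, and all 85 had values. Whole brains came from 3 same-sex littermate pairs of a congenic line, in which a segment carrying the CAST allele of Nxf1 had been bred onto the C57BL/6J background. In each pair an animal homozygous for the CAST allele (Nxf1-CAST, n = 3) was set beside an animal homozygous for the B6 allele (Nxf1-B6, n = 3). The congenic segment extends beyond Nxf1, so the Nxf1 allele and other linked alleles cannot be told apart. Of the pairs 2 were female, aged 46 and 23 days, and 1 was male, in which the Nxf1-B6 mouse was 22 and the Nxf1-CAST mouse 23 days old. Each of the 6 RNA samples was hybridized to its own Affymetrix MJAY array, which carries probe sets for the exons and junctions of each path of an alternative event.

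The table gives, for each event, an exclusion and an inclusion intensity in a set A and in a set B, each pooled over the arrays of the set. It does not name the sets by genotype. Set B was likely Nxf1-CAST, because notes in the table define its comparison as mutant over wild type with the controls named first, and the Methods put CAST over B6. Set B is not the genotype letter B of the sample labels, which stands for the B6 allele. For each event the shift was taken as the log2 of exclusion over inclusion in set B divided by the same ratio in set A, so that a shift above 0 means relatively more of the exclusion path in set B. An event was counted as past the threshold at an absolute shift over 0.5, a 1.41-fold change of the ratio. With pooled values there is no spread between animals and no test, and precision is limited by how few arrays there were. Differences below are descriptions of these pooled values.

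ABC proteins bind and split ATP at a pair of nucleotide-binding domains, and most use it to move lipids, sterols, drugs or metabolites across a membrane. P-type pumps are phosphorylated in each transport cycle and move sodium, potassium, calcium, other cations or, in the P4 group, phospholipids, while the V-ATPase turns a rotor to acidify lysosomes, endosomes and synaptic vesicles. In brain the sodium pump restores the gradients that firing runs down, calcium pumps return calcium to rest, and the ABC transporters of vessels and glia handle drugs and cholesterol. Many of these genes are transcribed from several starts or spliced in several forms, which can change where a protein is placed or how it is regulated.

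Promoter sequences are shown for the genes in which a choice of transcript start was measured and had the largest shift (Abcc5 and Atp6v0a4), and for Atp2b2, in which such a choice was measured at a pair of events with small shifts. They are RefSeq sequences on build GRCm38.p6 and run from 250 bases before to 50 bases after an annotated start, 5' to 3' on the strand of the gene, in lower case with each CG dinucleotide in capitals. Abcc5 has a single listed start at chr16:20426345-20426644 on the minus strand, with 24 CG dinucleotides and 63% G and C. Atp6v0a4 also has a single listed start, at chr6:38124537-38124836 on the minus strand, with 1 CG dinucleotide and 48% G and C. The starts of Atp2b2 lie at chr6:113891490-113891789, chr6:113934632-113934931 and chr6:114042031-114042330 on the minus strand, and hold 12, 8 and 27 CG dinucleotides. The letters CG, which read the same on both strands, occur at least once in 94.6% of 32851 RefSeq mouse promoter sequences of the same length, with a median of 7. Of those promoters 20% held 24 or more and 14.1% held 1 or fewer. The Abcc5 window thus lies among the CG-rich promoters and the Atp6v0a4 window among the CG-poor ones, and Atp2b2 has starts of intermediate and of high CG content. Which listed start belongs to which path is not given by the table.
Abcc5: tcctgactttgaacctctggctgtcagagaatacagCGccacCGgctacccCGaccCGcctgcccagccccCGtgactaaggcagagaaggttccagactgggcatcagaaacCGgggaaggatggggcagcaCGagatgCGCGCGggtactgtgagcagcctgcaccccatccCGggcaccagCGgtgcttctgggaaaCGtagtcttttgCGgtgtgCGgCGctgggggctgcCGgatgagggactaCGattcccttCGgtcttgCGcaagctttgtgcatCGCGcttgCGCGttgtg
Atp6v0a4: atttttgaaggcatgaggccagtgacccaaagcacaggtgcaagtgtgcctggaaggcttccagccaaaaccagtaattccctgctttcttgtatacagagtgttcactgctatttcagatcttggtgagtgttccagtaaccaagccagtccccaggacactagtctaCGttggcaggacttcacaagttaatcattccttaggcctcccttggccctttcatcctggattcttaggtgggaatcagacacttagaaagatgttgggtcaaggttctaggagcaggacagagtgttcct
Atp2b2 start 1: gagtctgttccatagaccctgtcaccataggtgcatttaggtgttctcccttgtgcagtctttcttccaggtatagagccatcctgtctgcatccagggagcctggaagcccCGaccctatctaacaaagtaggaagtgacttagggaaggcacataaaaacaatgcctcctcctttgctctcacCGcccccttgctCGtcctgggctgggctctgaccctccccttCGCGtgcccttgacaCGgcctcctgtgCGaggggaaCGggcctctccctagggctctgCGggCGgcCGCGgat
Atp2b2 start 2: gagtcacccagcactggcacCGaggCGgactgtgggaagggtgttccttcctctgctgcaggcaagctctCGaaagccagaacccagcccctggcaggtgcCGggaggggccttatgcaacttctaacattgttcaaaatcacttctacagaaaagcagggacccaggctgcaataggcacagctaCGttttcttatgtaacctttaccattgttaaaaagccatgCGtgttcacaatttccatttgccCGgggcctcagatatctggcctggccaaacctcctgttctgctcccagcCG
Atp2b2 start 3: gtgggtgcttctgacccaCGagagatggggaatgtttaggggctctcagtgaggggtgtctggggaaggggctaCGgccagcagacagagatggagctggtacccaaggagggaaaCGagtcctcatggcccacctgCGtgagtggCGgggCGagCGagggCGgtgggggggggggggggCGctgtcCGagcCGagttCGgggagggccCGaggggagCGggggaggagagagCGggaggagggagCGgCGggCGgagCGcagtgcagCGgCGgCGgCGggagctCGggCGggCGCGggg

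Few of the ABC and pump genes differed between the sets in the choice of path, and the largest shifts were toward exclusion in set B. Past the threshold were 3 of 85 events (3.53%), against 950 of 12948 events of the table (7.34%). With an offset of 50 added to every intensity the count was 1 of 85, against 3.18% of all events. All 3 had a shift above 0.5, which 4.52% of all events with a sign had. No shift below -0.5 occurred among these genes, against 2.72% of all events. The median absolute shift was 0.16 in the ABC and pump genes and 0.18 over all events, and the 90th percentile was 0.39 against 0.45. An absolute shift under 0.1 was found for 26 events (30.6%), against 29.6% of all events. The members were therefore not called more often than the rest of the table. Of the 83 events with an exclusion path, 49 (59%) had a shift above 0, against 55.4% of all events. When every shift was centred on the median of all events, which was 0.03, that count was 42 of 83 (50.6%), so the small excess on the positive side depended on the centre used.

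**Figure D1:**
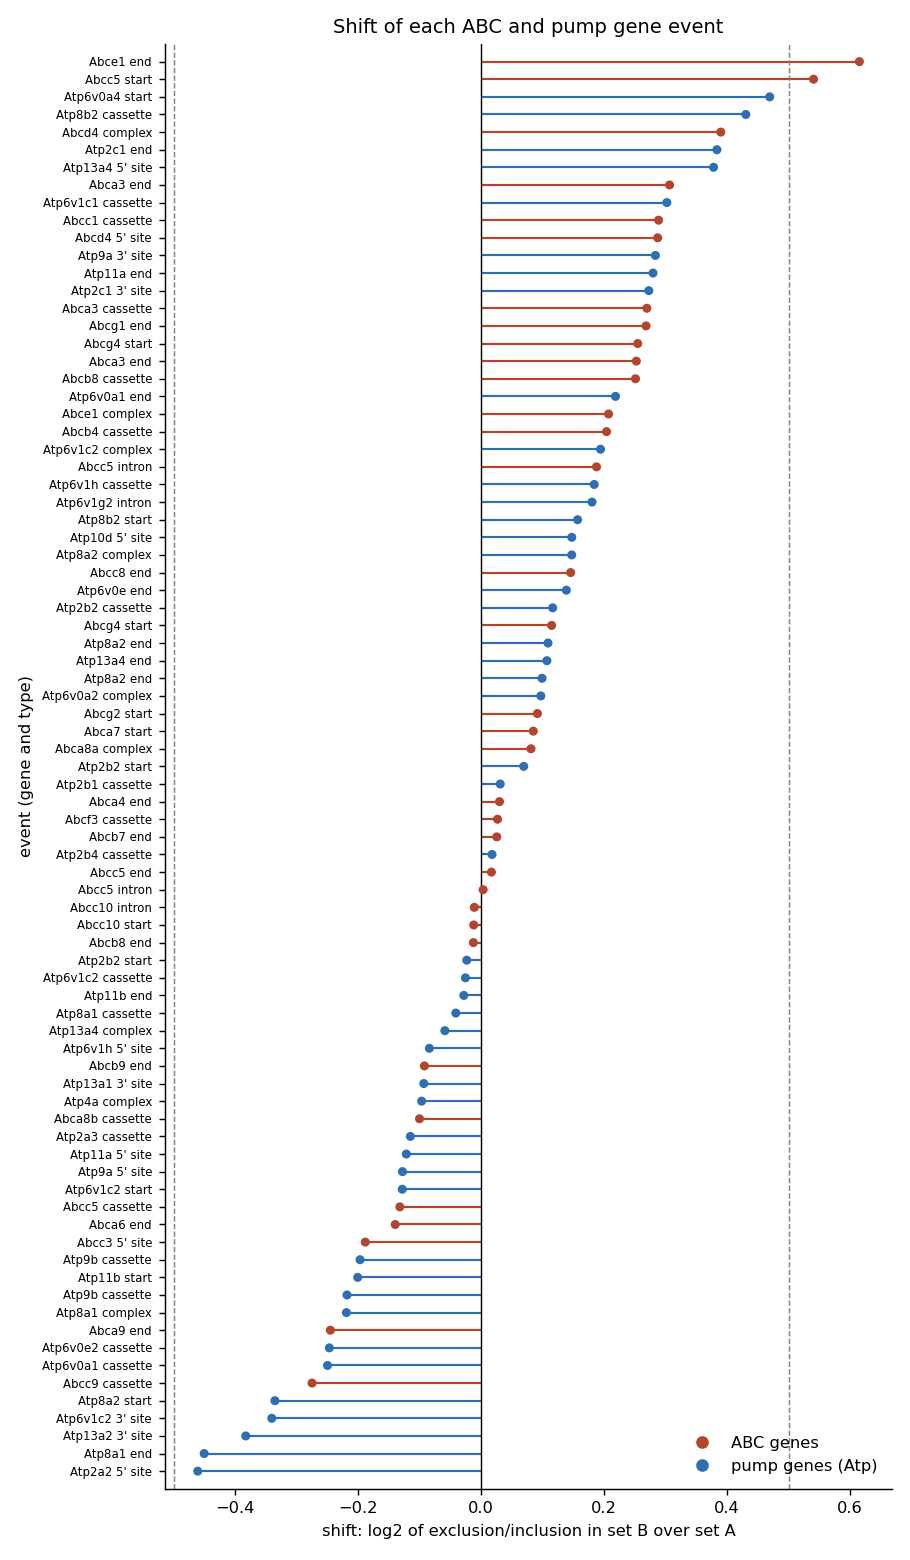
Shift of 81 of the 83 events with an exclusion path, as log2 of exclusion over inclusion in set B over set A (horizontal axis), with ABC genes in red and pump genes in blue and dashed lines at -0.5 and 0.5. Abce1 and Abcc5 lie past the right line, and the lowest shift, of Atp2a2, is -0.46.

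The largest shift was in Abce1, which encodes an ATPase without membrane domains that splits ribosomes after termination so that they can be used again. At a choice of transcript end in Abce1, the exclusion path read 1890 in set A against 1948 in set B, and the inclusion path 416 in set A against 280 in set B. Nearly all of the difference was thus in the inclusion path, which was lower in set B. The shift was 0.61, rank 386 of 12948 by size. A complex event of Abce1 had a shift of 0.21, in the same direction.

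Abcc5 encodes an exporter of cyclic nucleotides and other organic anions. At its choice of transcript start, the exclusion path read 302 in set A against 380 in set B, and the inclusion path 1736 in set A against 1502 in set B. The shift was 0.54, rank 709, and it was 0.49 with an offset of 50, just below the threshold. Abcc5 had the most events of any gene here, 5, and its other 4 had smaller shifts. Retention of an intron of 1186 nucleotides had a shift of 0.19, with the spliced path at 112 in set A against 123 in set B and the retained path at 788 and 760. An intron of 2229 nucleotides had a shift of 0.0031 and a choice of transcript end 0.02. The cassette exon of 87 nucleotides had a shift of -0.13, with exclusion at 1329 in set A against 1225 in set B and inclusion at 389 and 393. Of the 5 events of Abcc5 the start thus had the largest shift, while its end and the larger retained intron had nearly the same path ratio in both sets. The smaller retained intron (0.19) and the cassette exon (-0.13) lay between and went opposite ways.

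**Figure D2:**
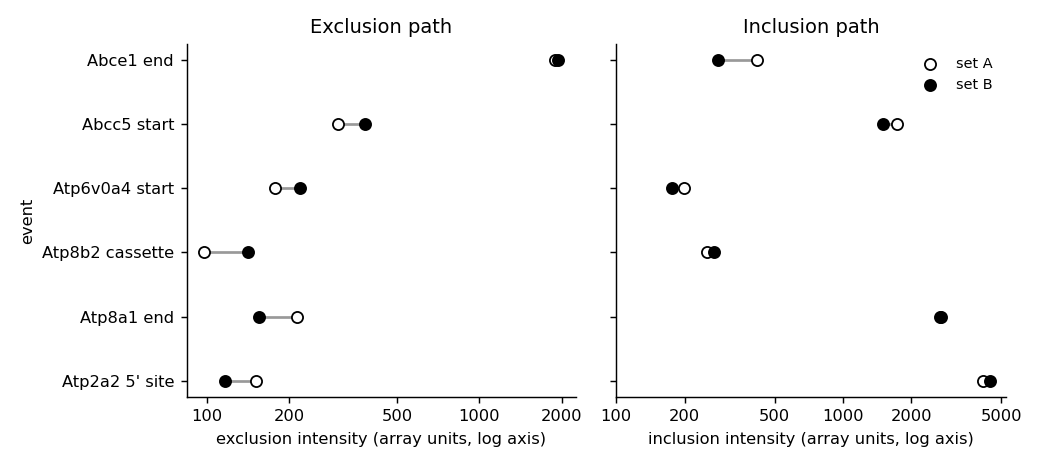
Exclusion intensity (left) and inclusion intensity (right), in array units on log axes, for 6 events with an exclusion path and an absolute shift over 0.4, with set A as open and set B as filled circles. In Abce1 the inclusion path moved (416 to 280), in Atp8a1 the exclusion path (214 to 155), and in Abcc5 both paths.

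The ABC genes gave 34 events in 23 genes, with 2 past the threshold (5.88%, against 7.34% of all events) and a median absolute shift of 0.17. A shift above 0 was found for 24 of the 34 (70.6%, against 55.4% of all events), with no test of the difference. All 4 events of the ABCG family, half-size sterol and drug transporters, were above 0, between 0.09 and 0.27. In Abcg1, a cholesterol efflux protein, a choice of transcript end had exclusion intensity 821 in both sets and inclusion intensity 289 in set A against 240 in set B, a shift of 0.27. The brain sterol transporter Abcg4 had choices of start with shifts of 0.25 and 0.11. In the first of these exclusion was 2264 in set A against 2275 in set B, and inclusion was 704 and 593. Abcg2, the drug efflux pump of brain vessels, had exclusion at 1129 and 1197 and inclusion at 209 and 208, a shift of 0.09. In Abcg1 and in both Abcg4 events the inclusion path was lower in set B, and in Abcg2 the path intensities were nearly equal.

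Abca3, a phospholipid transporter best known from lung lamellar bodies, had 3 events, and all leaned to exclusion in set B with shifts of 0.31, 0.27 and 0.25. Its cassette exon of 73 nucleotides had exclusion at 915 in set A against 981 in set B and inclusion at 679 and 604. At its choices of transcript end inclusion was 442 in set A against 359 in set B in the first, and 101 and 84 in the other. Inclusion was lower in set B at each of the 3 events, which belong to the same gene and are not independent. The remaining 6 ABCA events lay between -0.25, for a transcript end of Abca9, and 0.08. Abca9 had exclusion at 213 and 208 and inclusion at 146 and 169.

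Abcd4, a lysosomal protein needed for the release of vitamin B12, gave both events of the ABCD family. A complex event had exclusion at 169 in set A against 194 in set B and inclusion at 647 and 567, a shift of 0.39. A 5' splice site choice of 160 nucleotides had a shift of 0.29. In both, exclusion was higher and inclusion lower in set B. In the ABCB family the largest shift was that of the mitochondrial transporter Abcb8, at a cassette exon of 251 nucleotides. Exclusion there was 303 in set A against 437 in set B, and inclusion was 363 and 440. Both paths were thus higher in set B, by 0.40 on the log2 scale for their sum, and the shift was 0.25. The transcript end of Abcb8 had a shift of -0.01 and a summed intensity that differed by 0.03, so the higher level was seen at the cassette and not at the end.

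The lowest shift among the ABC genes was in Abcc9, a sulfonylurea receptor that regulates ATP-sensitive potassium channels. Its cassette exon of 176 nucleotides had exclusion at 536 in set A against 466 in set B and inclusion at 77 and 81, a shift of -0.28. Its inclusion path was among the dimmest measured. The related receptor Abcc8 had a shift of 0.15 at a transcript end, with exclusion at 604 and 589 and inclusion at 338 and 298. Abcc10 had nearly equal path ratios in both sets, with shifts of -0.01 at a start and at a retained intron of 111 nucleotides.

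The pump genes gave 51 events in 29 genes, with 1 past the threshold (1.96%, against 7.34% of all events) and a median absolute shift of 0.16. Here 25 of the 49 events with a sign (51%, against 55.4% of all events) were above 0. The lowest shift of all 83 was in Atp2a2, the SERCA2 pump that returns calcium to the endoplasmic reticulum. At a 5' splice site choice with a segment of 1409 nucleotides, exclusion was 151 in set A against 117 in set B, and inclusion was 4165 and 4442. The shift was -0.46, and it came mostly from the exclusion path. Of the other calcium pumps, Atp2c1, which fills the Golgi with calcium and manganese, had a shift of 0.38 at a transcript end, with exclusion at 1872 and 1980 and inclusion at 164 and 133. A 3' splice site choice of 114 nucleotides in Atp2c1 had a shift of 0.27, with exclusion at 331 and 407 and inclusion at 946 and 963. The remaining event of Atp2c1, with 3 paths and no exclusion path, had path shifts between -0.14 and 0.05.

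The plasma membrane calcium pumps, which extrude calcium from the cell, kept close path ratios in the 2 sets. Atp2b2, abundant in cerebellar neurons, had shifts of 0.07 and -0.02 at its choices of start and 0.12 at a cassette exon of 33 nucleotides. At the first start exclusion was 2306 in set A against 2064 in set B, and inclusion was 218 and 186. At the other start exclusion was 1554 and 1368 and inclusion 3183 and 2848. All paths of Atp2b2 were lower in set B, by 0.13 to 0.17 on the log2 scale for the sums, while the choice between them was near equal. The cassettes of Atp2b1 (154 nucleotides) and Atp2b4 (181 nucleotides) had shifts of 0.03 and 0.02. Both had bright inclusion paths, at 4355 and 4197 in Atp2b1 and at 5399 and 5175 in Atp2b4.

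The gastric proton pump gene Atp4a had exclusion at 251 and 274 and inclusion at 418 and 488, a shift of -0.10.

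V-ATPase subunits gave 14 events in 9 genes, with shifts from -0.34 to 0.47. The highest was at the choice of start of Atp6v0a4, a membrane sector subunit best known from kidney. Exclusion was 178 in set A against 219 in set B, and inclusion was 198 and 176. Its shift of 0.47 was the fourth highest of the 83, and it was 0.37 with an offset of 50. The stalk subunit Atp6v1c1, at a cassette exon of 95 nucleotides, had exclusion at 282 and 388 and inclusion at 2212 and 2469, a shift of 0.30. Its relative Atp6v1c2 had 4 events, with shifts of -0.34 at a 3' splice site choice of 33 nucleotides, -0.13 at a start, -0.03 at a cassette exon of 138 nucleotides and 0.19 at a complex event. At the cassette exon exclusion was 81 in set A against 109 in set B and inclusion was 219 and 300. Both paths were thus higher in set B, and with an offset of 50 the shift was -0.10. Summed intensity was higher in set B at all 4 events of Atp6v1c2, by 0.09 to 0.45 on the log2 scale.

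The neuronal subunit Atp6v0a1 had a cassette exon of 79 nucleotides with exclusion at 90 in set A against 65 in set B and inclusion at 2628 and 2257, a shift of -0.25. Its transcript end had a shift of 0.22, with exclusion at 6093 and 5846 and inclusion at 622 and 513. With an offset of 50 the cassette shift was -0.07, since its exclusion path was under 102 in both sets. In each event of Atp6v0a1 both paths were lower in set B. Atp6v0e2 had a cassette exon of 127 nucleotides with a shift of -0.25, from exclusion at 364 and 325 and inclusion at 3947 and 4182. For Atp6v1g2, the brain form of a stalk subunit, the spliced path of an intron of 405 nucleotides was 6115 in set A against 7460 in set B and the retained path 977 and 1052, a shift of 0.18.

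The P4 flippases, most of which move phospholipids to the cytosolic side of membranes, gave 20 events in 9 genes, the most of any family. Their median absolute shift was 0.20. Signs were nearly even, with 9 of 19 above 0. A high shift was found at a cassette exon of 131 nucleotides in Atp8b2, with exclusion at 98 in set A against 142 in set B, inclusion at 252 and 271 and a shift of 0.43. The neuronal flippase Atp8a1 lay at the other end. At its choice of transcript end exclusion was 214 and 155 and inclusion was 2720 and 2692, a shift of -0.45. Its complex event had a shift of -0.22, and its cassette exon of 45 nucleotides, where both paths were bright (1679 and 1625 for exclusion, 1479 and 1473 for inclusion), had a shift of -0.04. All 3 events of Atp8a1 were below 0, while its relative Atp8a2 had 3 of 4 above 0, between 0.10 and 0.15, and a start at -0.34. Inclusion at that start of Atp8a2 was dim, at 88 in set A against 101 in set B, with exclusion at 321 and 292.

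In Atp9a, a member of the endosomal flippase group, the event with 3 paths had no exclusion path and so no sign. Its first path was 1939 in set A against 2672 in set B, the next 1210 and 1298, and the last 298 and 365. All 3 paths had the same inclusion value beside them, 1441 in set A and 1457 in set B. Against that value the path shifts were 0.45, 0.09 and 0.28 in this order, so 0.45 does not set the first path against the other paths. A 5' splice site choice of 103 nucleotides in Atp9a had exclusion at 232 and 286 and inclusion at 916 and 1234, with a summed difference of 0.40 and a shift of -0.13. At a 3' splice site choice of 37 nucleotides exclusion was 169 and 179 and inclusion was 972 and 846, with a summed difference of -0.15 and a shift of 0.28. Summed intensity of Atp9a was thus higher in set B at the first 2 of these events and lower at the other.

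The P5 pumps gave 5 events in 3 genes. Atp13a2, a lysosomal polyamine exporter whose human counterpart is mutated in a form of parkinsonism, had a shift of -0.38 at a 3' splice site choice of 73 nucleotides. Exclusion was 140 in set A against 125 in set B, and inclusion was 804 and 936. Atp13a4 had a shift of 0.38 at a 5' splice site choice of 56 nucleotides, from exclusion at 56 and 80 and inclusion at 211 and 232, and 0.11 and -0.06 at its other events. With an offset of 50 the splice site shift was 0.18, and the transcript end at 0.11 was 0.04. The exclusion path of that splice site was among the dimmest measured, where the lowest value in the table is 43.

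**Figure D3:**
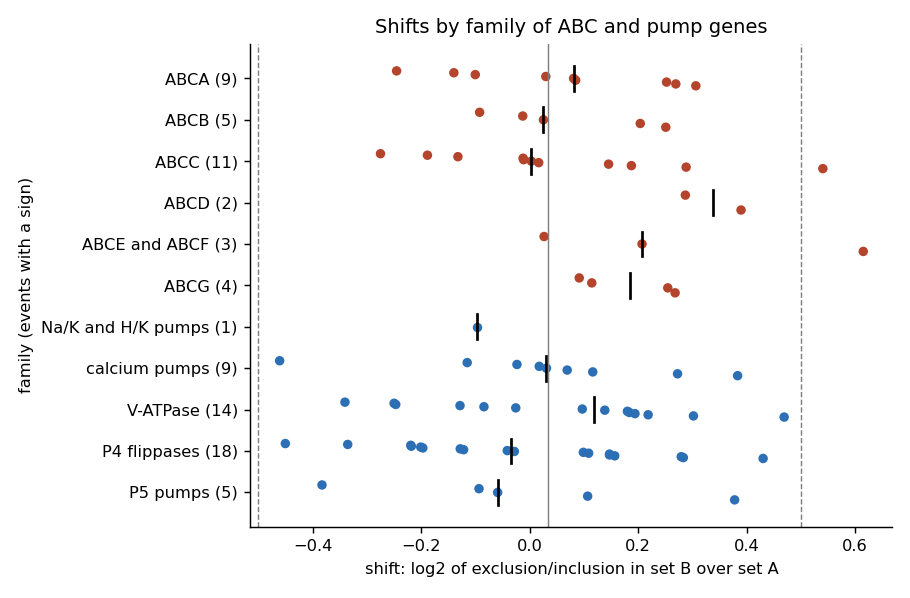
Shift of 81 of the 83 events with a sign (points; horizontal axis, log2) by family, with the number of points in parentheses, black bars at the medians of the points, a grey line at the median of all events (0.03) and dashed lines at -0.5 and 0.5. All ABCD, ABCE and ABCF, and ABCG events lie above 0, in families of 2 to 4 events, and the P4 flippases shown spread from -0.45 to 0.43.

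The paths of an event were also compared apart. Both paths were lower in set B in 33 of 83 events (39.8%, against 29.6% of all events) and both were higher in 20 (24.1%, against 29%). Exclusion was higher and inclusion lower in 20 (24.1%, against 23%), and the reverse held in 9 (10.8%, against 16.4%). The summed intensity of both paths was higher in set B in 32 of 85 events (37.6%), against 48.7% of all events, with a median difference of -0.04 against -0.0040. The ABC and pump events thus stood slightly lower in set B, and no spread between animals can be set beside this difference. By family, summed intensity was higher in set B in 4 of 5 ABCB events and 2 of 3 ABCE and ABCF events. It was higher in 9 of 14 V-ATPase, 5 of 20 P4 flippase and 1 of 11 ABCC events. These counts are over events, and events of a gene are not independent. All 4 events of Atp6v1c2 were among the 9, and all 5 events of Abcc5 were lower in set B. In whole-brain RNA, fewer cells of a type and less RNA per cell cannot be told apart.

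**Figure D4:**
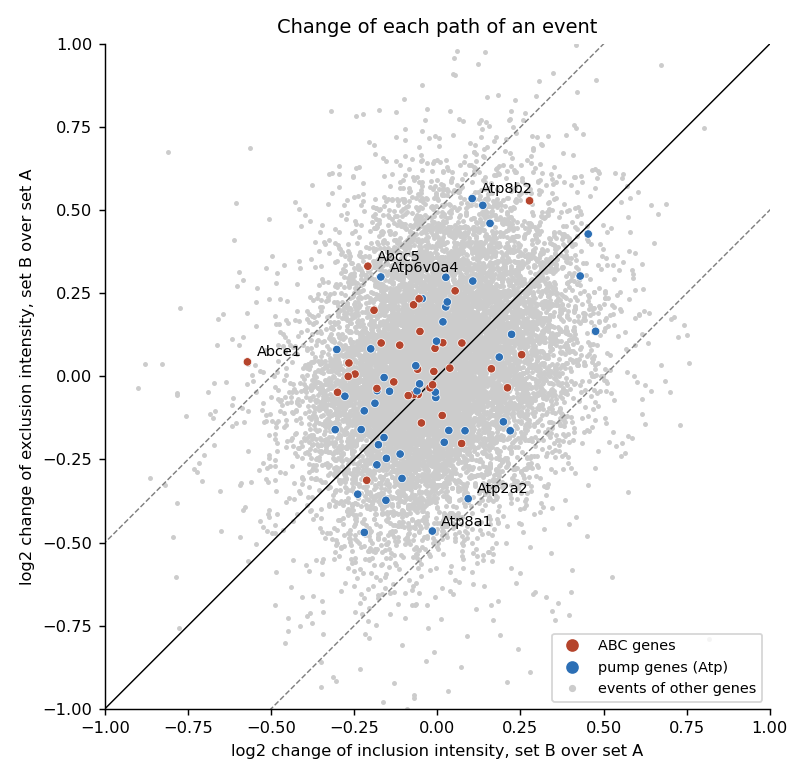
Log2 change of inclusion intensity (horizontal axis) and of exclusion intensity (vertical axis) in set B over set A, for 81 of the 83 events of ABC genes (red) and pump genes (blue) and events of other genes (grey, those within the axes), with equal change on the solid line and a shift of 0.5 either way on the dashed lines. Abce1 and Abcc5 lie beyond the upper dashed line, and the points in the lower left are events with both paths lower in set B.

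Of the 52 genes, 32 had a single event, 11 had 2 and 9 had 3 or more. Events of a gene can share exons, though not all overlap, and they are not replicates of each other. Among the 20 genes with at least 2 events with a sign, 6 had all shifts above 0, 4 had all below 0 and 10 had both signs. The sign of the summed difference was the same at all events in 12 of the 20 genes. The direction of the shift at one event of a gene therefore did not fix that of another. Of the 22 cassette exons 10 had a length that is a multiple of 3, with a median absolute shift of 0.12. The other 12, whose inclusion alters the reading frame where they lie in coding sequence, had a median of 0.25, and these values have no test. Over all cassette exons of the table the median was 0.19, and these were not split by length here. Some of the 12 had a dim path. With an offset of 50 the cassette shift was -0.07 in Atp6v0a1 and 0.29 in Atp8b2, against -0.25 and 0.43 without it.

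Genes that work with these pumps and transporters were read beside them, from a list of ATP synthase subunits, regulators of the sodium and calcium pumps, V-ATPase and ABC partners and copper handling genes. Of its 38 events in 24 genes 3 were past the threshold (7.89%, against 7.34% of all events), and none of the 3 belonged to a V-ATPase or ABC partner. Atp5f1, which encodes the b subunit of mitochondrial ATP synthase, had the largest shift, -0.93, at a cassette exon of 167 nucleotides. Exclusion there was 2244 in set A against 1608 in set B, and inclusion was 215 and 294. A retained intron and a transcript end of Atp5f1 had shifts of -0.12 and 0.29. Atp5l2, a relative of the g subunit, had a shift of 0.79 at a cassette exon of 161 nucleotides, with exclusion at 154 and 208 and inclusion at 1096 and 858. Pln encodes phospholamban, the inhibitor of SERCA pumps, and its cassette exon of 127 nucleotides had exclusion at 167 and 129 and inclusion at 157 and 205, a shift of -0.76. The ATP synthase genes as a group had 5 of 10 events above 0, so they did not lean to one path.

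Other transport genes were set beside the ABC and pump genes without a test. Solute carriers gave 232 events with values, 22 of them past the threshold (9.48%), and a median absolute shift of 0.17. Ion channels gave 151 events, 11 of them past the threshold (7.28%), and also had a median of 0.17. The share in the ABC and pump genes, 3.53%, was the lowest of the 3, while the medians were close. Summed intensity was higher in set B in 62.5% of solute carrier events and 44.4% of ion channel events, against 37.6% in the ABC and pump genes.

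Large shifts were more frequent among dim events. Ordered by the lowest of the 4 intensities of an event, 10.8% of all events in the dimmest of 5 equal classes and 3.9% in the brightest were past the threshold. The ABC and pump events were spread over the classes, from dim to bright, as 15, 15, 14, 19 and 22, with 1, 0, 0, 2 and 0 past the threshold. Their median lowest intensity was 191, against 170 over all events. Spearman's rho between lowest intensity and absolute shift was -0.15 over the 85 events and -0.13 over all 12948, as a description across events that share arrays.

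Markers of brain cell types were read for the tissue and for the mix of cells. The neuron markers read here, Snap25, Stmn2 and Syt1 (3 of 7 listed), were bright, with a median brightest intensity of 9130 in set A against 504 over all events. Their summed intensity was 37763 in set A against 36258 in set B, and Snap25 had the highest sum. Astrocyte markers (5 of 5 listed) summed to 33423 and 34494, oligodendrocyte markers (4 of 6) to 53104 and 51488, microglia markers (3 of 5) to 2606 and 2757 and endothelium markers (2 of 5) to 3389 and 3197. By intensity summed over events, on a scale that probe sets do not strictly share, these lists were led by Slc1a2, Mbp, Csf1r and Pecam1. Such a sum also grows with the number of events, so it does not rank the genes. Pecam1 had 5 events against 1 for Flt1, and Csf1r had 2 against 1 for Ptprc. The median brightest intensity in set A was lower in Pecam1 (405) than in Flt1 (712), and lower in Csf1r (434) than in Ptprc (559). Choroid plexus was read from Folr1 alone, at 495 and 463, and blood from Alas2 alone, at 294 and 332, and the other listed markers of these types were not analysed here. Within a type the markers did not all differ the same way. Slc1a2 (-0.08) and Aldh1l1 (-0.16) were lower in set B while Slc1a3 (0.12), Gfap (0.12) and Aqp4 (0.14) were higher, as the median over a gene's events of the log2 difference in summed intensity. Itgam (-0.10) was lower where the microglia sum was higher, and Stmn2 (0.04) higher where the neuron sum was lower. No value in the table is below 43 and no detection level was applied, so an intensity above 0 does not show that a marker was expressed. Alas2 (167), Itgam (258) and Folr1 (294), among others, had a brightest intensity in set A below the 504 of all events. The part of the marker differences in the shifts and levels above was not tested.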

How the data were processed

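Total brain RNA of 6 mice was hybridized to Affymetrix MJAY arrays, 1 for each animal, and Affymetrix Power Tools is named in the submitters' processing notes. The authors deposited a table of 26514 paths, 26399 of them with values, in which exclusion and inclusion values are whole-number intensities pooled over the arrays of set A and set B. The normalization, the summary method and the genome build of the positions are not given in the sources used here. The deposited table also holds the authors' own comparisons, separation scores with q-values for a paired and a standard analysis, and these were not used, nor were the intensities of the standard analysis. Of the deposited columns 4 were read, the paired exclusion and inclusion intensities, and no other unit entered. Depth does not apply to arrays, and no value per array was analysed here, so no mean ± SD, interval or test was computed.

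Paths were joined into events by name. From the deposited intensities a log2 shift was computed, exclusion over inclusion in set B over set A. An event took the path with the largest absolute shift and the sign of its exclusion path, and 2 events of 3 paths without an exclusion path had no sign. No filter and no offset were applied. The threshold of 0.5 is the size part of the study's criterion, and its q part was not applied, so calls here rest on size alone. The number in an event's name was read as the length of its alternative segment, and 93.7% of 1068 retained introns had a span within 2 nucleotides of it. All 52 genes matched RefSeq symbols on GRCm38.p6, but 23.5% of their events lay within 1000 bases of the gene there, so the table's positions were not combined with the reference and are not printed. Of 11 member genes with a choice of start, 9 had a RefSeq promoter sequence.

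The members, the lists of families, partners and cell type markers and the comparisons were chosen with earlier results of these data known. Named by rule were the 10 highest and 10 lowest shifts, events past the threshold (partners included), and in each family the gene with the largest shift and the gene with most events. Abcg2, Abcc8, Abcc10, Atp2b1, Atp2b4, Atp6v1g2 and Atp9a, the cassette exon of Atp8a1, the transcript end of Atp6v0a1 and the smaller events of Atp5f1 fall outside it and were chosen after their values were seen. Alternatives were another threshold, the exclusion path alone, a mean over paths, no dim events, an offset of 50, centred shifts and genes in place of events. The values of some members are not reported here, though counts over the members include them. The shift was checked on simulated data, and no value from that check is reported here. Software was matplotlib 3.10.9, scipy 1.17.1, pandas 2.3.3 and numpy 2.4.6 under Python 3.11.15.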

Additional observations from a re-analysis of the deposited data

How the results depend on the processing

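The count of ABC and pump events past the threshold moved with the offset and with the threshold. With an offset of 50 added to each intensity it was 1 of 85 (Abce1), beside 3.18% of all events. At an absolute shift over 0.4 it was 8, beside 14% of all events, and over 0.75 it was 0, beside 1.15%. It was 3 from the exclusion path alone, from a mean over paths, with centred shifts and over genes (of 52, beside 11.7% of all genes), and 2 of 67 without dim events. In each of these alternatives, as in the values reported, the members' share lay below that of all events. The median absolute shift of the members ran from 0.14 to 0.21 and their share above 0 from 50.6% to 60.8%, and the median change of summed intensity stayed between -0.04 and -0.03. Over the 48 events named by rule, 191 values were recomputed and 189 stayed on their side of the threshold. The other 2, among them Abcc5 at 0.49 with the offset, went below it. The sign turned in 2 of the 191 values. The values used are pooled over the arrays of each set, so they allowed no paired analysis and no array could be left out in turn. The authors' own paired analysis was not used. The small number of arrays and the pooling limit every value, and a path with an intensity under 102 limits Atp8b2, Atp13a4 and Abcc9 among others.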
